A study of Mus musculus with 74 samples.

Results

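Lkb1, the mouse gene with the RefSeq symbol Stk11 (gene ID 20869), was 1 of 17 genes targeted in a pool of paired guide RNAs, and is described here across 74 mice. Its members were all tumours that carried an Lkb1 guide in either of the 2 guide places, leaving out constructs with 1 guide repeated in both places, the guide named NE and the spike-ins. This gave 39687 of the 378754 tumours listed. Of these, 4703 paired Lkb1 with an inert guide (named safe, NT or EGFP), 618 carried both Lkb1 guides, and 34366 carried a guide against another gene. Tumours with a pair of inert guides (2973) served as the comparison within each mouse.

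Tumours were started with a pool of lentiviruses carrying Cre, a barcode and a pair of guides, and barcodes and guides were sequenced from 32 µg of DNA per lung about 3 months later. Each tumour is listed with its reads and the cells that the submitters estimated from spike-in barcodes. The 45 H11-Cas9 mice and the 20 H11-LSL-Cas9 mice made Cas9, and in the second of these groups Cre must first remove a stop cassette. The 9 KT mice had no Cas9, so their guides could not cut. All groups shared the background that the labels call KT, in which Cre switches on an oncogenic allele and a Tomato reporter. No readout of cutting or of LKB1 protein was used here, so tumours are named by their guides, and the loss of Lkb1 in a given tumour was not measured.

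LKB1 is a serine/threonine kinase that phosphorylates and activates the energy sensor AMPK and a group of related kinases. It acts as a tumour suppressor in the lung, where it is among the genes often inactivated in adenocarcinoma, and inherited loss in people causes a polyposis syndrome. In a barcoded tumour pool, a gene can act on how many tumours are seen and on how large they grow, and each was given its own measure. Number counts only tumours large enough to be listed, so it is not fully separate from size.

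The groups differed in depth. An H11-Cas9 mouse held 1013 to 5364 tumours, an H11-LSL-Cas9 mouse 4 to 4941 and a KT mouse 13191 to 41166. One read stood for a median of 7.96 cells in H11-Cas9, 12.9 in H11-LSL-Cas9 and 4.82 in KT. Fewer than 10 reads stood behind 20.7% of Lkb1/inert tumours in H11-Cas9, 41.6% in H11-LSL-Cas9 and 0.855% in KT. The smallest tumour listed had 50.1 cells, so a tumour below that size is not counted. By mouse, the smallest listed tumour had 50.1 to 105 cells in H11-Cas9, 50.4 to 369 in H11-LSL-Cas9 and 50.4 to 56.2 in KT. Numbers over all sizes, medians and percentiles used every listed tumour and were not adjusted for this difference. Summed over its 3 main spike-in barcodes, a mouse had a total near 100000 cells (25 H11-Cas9 and 5 KT mice) or near 300000 cells (all others). Some results are also given within these totals. Tested directly between the totals in H11-Cas9, 0 of 17 genes beside an inert guide were called in number or in any within-mouse size measure. Names of H11-LSL-Cas9 mice begin with letters found in no other group, and what those letters mark cannot be told apart from the genotype. The same holds for H11-Cas9 against KT near 100000 cells, where the names begin with LA in all 25 H11-Cas9 mice and with SL in all 5 KT mice.

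Lkb1/inert tumours were fewer in both Cas9 groups than in KT. An H11-Cas9 mouse held 9, 22 and 53 Lkb1/inert tumours (lowest, median and highest), an H11-LSL-Cas9 mouse 0, 33.5 and 75, and a KT mouse 201, 282 and 604. Inert/inert tumours numbered 5, 24 and 51 in H11-Cas9 mice, 0, 19 and 47 in H11-LSL-Cas9 mice and between 86 and 304 in KT mice. Set against these, the log2 number (tumours plus 0.5 over inert/inert tumours plus 0.5) was -1.13, -0.13 and 1.83 in 45 H11-Cas9 mice, 0.08, 0.64 and 1.41 in 17 H11-LSL-Cas9 mice, and 0.90, 1.08 and 1.22 in 9 KT mice. The KT mice lay close together, with an SD of 0.10, and their mean of 1.06 is the level of the virus pool without Cas9. In H11-Cas9, 44 of 45 mice lay below the lowest KT mouse, while 4 of 17 H11-LSL-Cas9 mice lay within or above the KT range.

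Relative to KT, the number of Lkb1/inert tumours fell to 0.440-fold in H11-Cas9 (log2 -1.19 ± 0.09, mean ± SE, 45 against 9 mice, label permutation, adjusted p = 5.67e-05). Of 17 single genes, 35.3% were called lower in that comparison. In H11-LSL-Cas9 the number fell to 0.765-fold (-0.39 ± 0.10, 17 against 9 mice, permutation, adjusted p = 0.0326), where 17.6% of genes were called lower. That second call was lost without KT replicate 1, 4, 6, 7, 8 or 9 (permutation, adjusted p of up to 0.0605). Split by spike-in total, H11-Cas9 minus KT came to -1.28 in mice near 100000 cells and to -1.07 in mice near 300000 cells (permutation, adjusted p = 0.00136 and 0.000453). For H11-LSL-Cas9 against the 4 KT mice near 300000 cells it was -0.37 (permutation, adjusted p = 0.344).

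**Figure D1:**
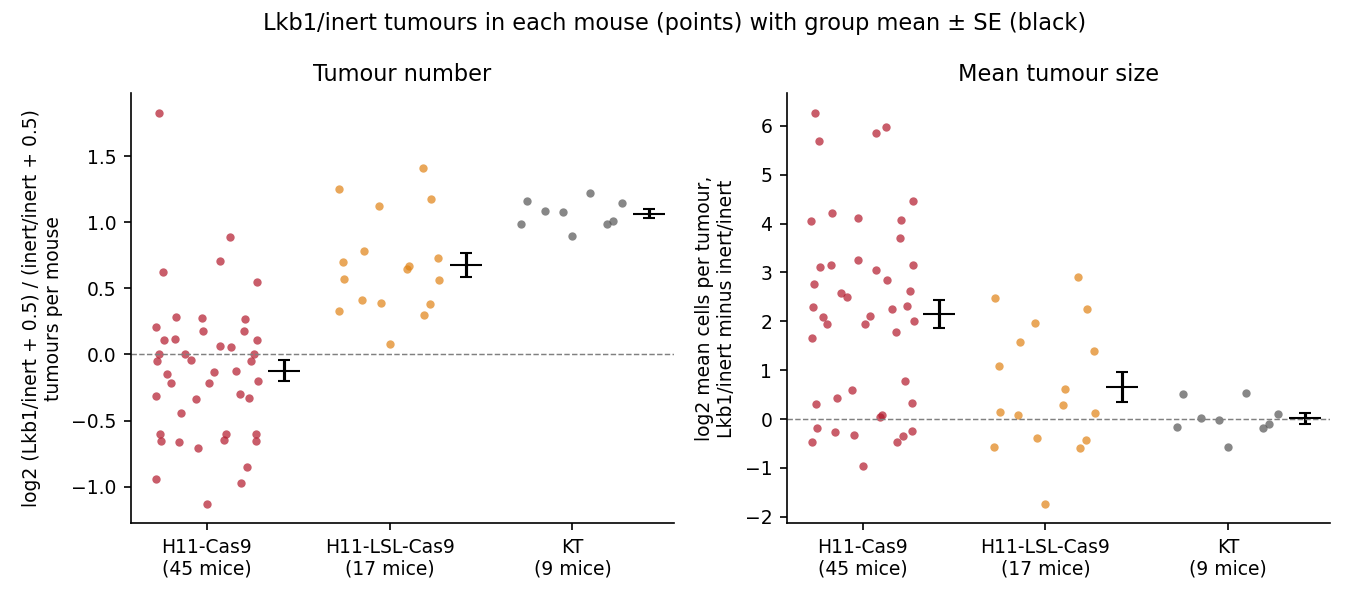
Each point is a mouse, with the mean and SE of its group in black. The left panel gives the log2 number of Lkb1/inert over inert/inert tumours, with group means of -0.12 in H11-Cas9, 0.68 in H11-LSL-Cas9 and 1.06 in KT, and the right panel the log2 difference in mean cells per tumour, with means of 2.16, 0.66 and 0.01.

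Lkb1 tumours of H11-Cas9 mice were on average far larger than inert/inert tumours, but their middle was not. The arithmetic mean of cells per Lkb1/inert tumour was 119, 1772 and 19805 over H11-Cas9 mice (lowest, median and highest), against 130.4, 287 and 849 for inert/inert tumours of the same mice. The mean cells per tumour rose 4.46-fold (log2 2.16 ± 0.29, higher in 37 of 45 mice, sign-flip permutation, adjusted p = 2.43e-05, with 64.7% of 17 genes called higher). The median tumour of a mouse, by contrast, lay at -0.05 ± 0.08 log2 units of the inert/inert median (permutation, adjusted p = 0.749). The middle tumour thus showed no measurable shift, and the genotypes separated in the arithmetic mean, which a few large tumours can set.

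The mean of log2 cells, which weights a large tumour less, rose by 0.27 ± 0.09 (higher in 26 of 45 mice, permutation, adjusted p = 0.00927). It lay at 0.45 ± 0.14 in the 25 mice near 100000 cells and at 0.04 ± 0.09 in the 20 near 300000 cells (permutation, adjusted p = 0.00822 and 0.759), and the difference between these sets was 0.41 ± 0.17 (permutation, adjusted p = 0.179). The mean cells per tumour passed in both sets, at 2.44 ± 0.42 and 1.80 ± 0.37 (permutation, adjusted p = 6.8e-05 and 0.000748). Against KT mice the difference in mean cells held (2.14 ± 0.31, 45 against 9 mice, permutation, adjusted p = 0.0100, with 17.6% of genes called higher) and that in mean log2 cells did not pass (0.22 ± 0.14, permutation, adjusted p = 0.544).

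In H11-LSL-Cas9 mice, mean cells per Lkb1/inert tumour were 144, 349 and 6982, against 148, 260.4 and 677 for inert/inert (18 mice with tumours). The log2 difference was 0.66 ± 0.31 over 17 mice and did not pass (higher in 12 of 17, permutation, adjusted p = 0.123, with 23.5% of genes called higher), except without H11-LSL-Cas9 replicate 13 (0.81, permutation, adjusted p = 0.0415). The mean log2 cells lay at -0.05 ± 0.09 (permutation, adjusted p = 0.841). In KT, without Cas9, mean cells were 322, 600.4 and 1105 for Lkb1/inert and 328, 577 and 968 for inert/inert, a log2 difference of 0.01 ± 0.12 (9 mice, exact sign-flip test, adjusted p = 0.945). The KT ranges of both genotypes overlapped almost fully.

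The size difference sat in the largest tumours. In H11-Cas9, Lkb1/inert tumours had a 25th percentile of 88.8 cells, against 92.1 cells for inert/inert (0.964-fold, 95% interval 0.888 to 1.03, mice resampled). Their median was 149.9 against 163.9 cells (0.914-fold, 0.849 to 1.001) and their 75th percentile 300.1 against 323 cells (0.929-fold, 0.818 to 1.11). Up to this point the intervals reached 1 or passed it. The 90th percentile was 1115 against 655 cells (1.703-fold, 0.997 to 4.42), the 95th 7489 against 1112 cells (6.74-fold, 2.35 to 13.6) and the 99th 68722 against 3521 cells (19.5-fold, 10.8 to 37.2). The ratio therefore climbed only above the 75th percentile. By spike-in total, the 95th percentile was 12878.5 against 1076 cells in mice near 100000 cells. Near 300000 cells it was only 2022 against 1139 cells.

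H11-LSL-Cas9 tumours also differed at the top. The Lkb1/inert median was 145 against 164 cells (0.885-fold, 0.771 to 0.962), but tested within mice the median lay at -0.22 ± 0.07 log2 units and did not pass (lower in 13 of 17 mice, permutation, adjusted p = 0.0803). The 95th percentile in H11-LSL-Cas9 was 1293 against 893 cells (1.45-fold, 0.757 to 6.52). The 99th percentile was 14747 against 2115 cells (6.97-fold, 2.19 to 18.6). These pooled values include replicate 8, with Lkb1/inert tumours of 37546 and 36192 cells from 305 and 294 reads. That mouse held 4 inert/inert tumours and entered no within-mouse comparison with them. In KT the ratios were 1.04 at the median, 0.948 at the 95th and 0.974 at the 99th percentile, with every interval from the 10th to the 99th percentile holding 1.

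**Figure D2:**
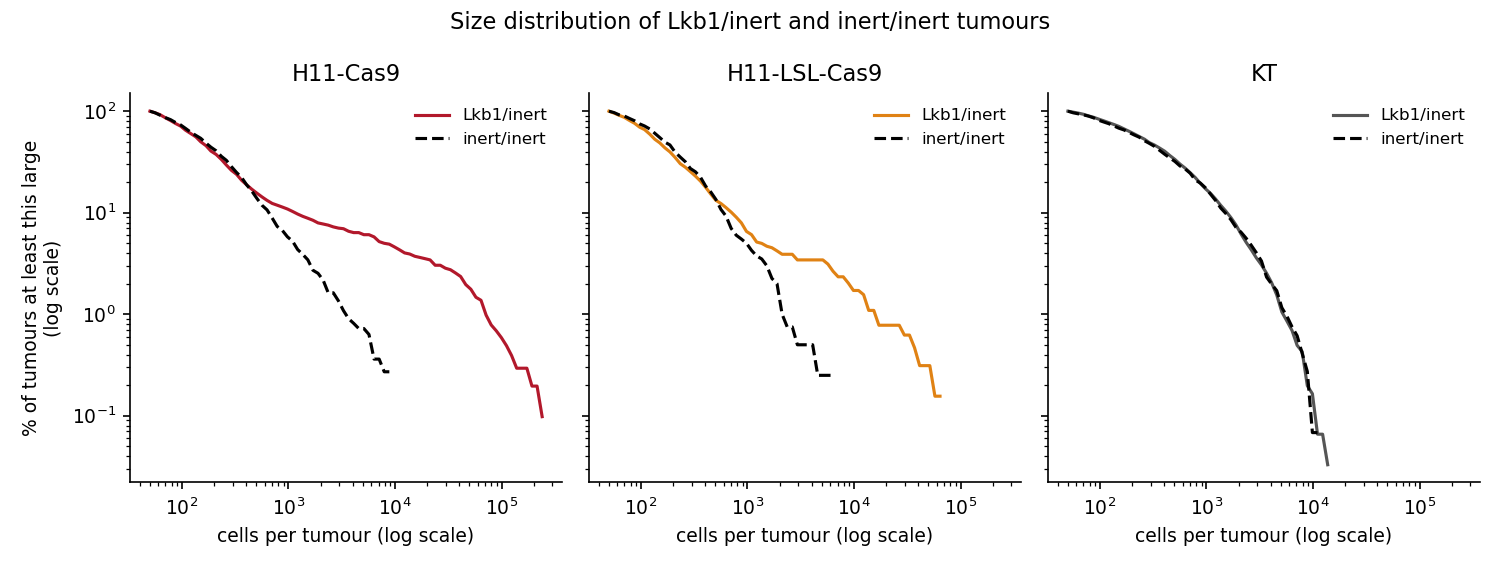
The percent of tumours (log scale) that reached at least the number of cells on the x axis (log scale) is drawn for Lkb1/inert tumours as a solid line and for inert/inert tumours as a dashed line, in H11-Cas9, H11-LSL-Cas9 and KT. In H11-Cas9 the lines run close together up to about 500 cells and part above it, with 10.8% against 5.60% at 1000 cells. In H11-LSL-Cas9 the Lkb1/inert line lies lower at small sizes (52.8% against 60.5% at 135 cells) and higher at 564 cells (12.3% against 10.75%) and above. In KT the lines run together throughout.

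Counted by size, 110 of 1021 Lkb1/inert tumours in H11-Cas9 had at least 1000 cells (10.8%), against 62 of 1107 inert/inert tumours (5.60%). Within mice this share was higher by 5.26 ± 1.28 percentage points (permutation, adjusted p = 0.000453, with 64.7% of genes called higher), and it was 7.90 points higher near 100000 cells and 1.95 near 300000 cells (permutation, adjusted p = 0.00113 and 0.362). Between the 2 totals, a direct test of this share called 0 of 17 genes. Against KT the difference of 5.87 ± 2.53 points did not pass (45 against 9 mice, permutation, adjusted p = 0.141). No inert/inert tumour reached 10000 cells in either Cas9 group. In H11-Cas9 there were 46 Lkb1/inert tumours of that size (4.51%), spread over 30 of 45 mice, and 0 of 1107 inert/inert tumours, which allows a share of up to 0.271%. The share per mouse averaged 4.68 ± 0.77% (mean ± SE). With every inert/inert share at 0, a difference could have only 1 direction, so a sign-flip test of it is not used here. Such tumours were seen at both spike-in totals, in 29 of 502 tumours near 100000 cells and in 17 of 519 near 300000 cells.

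In H11-LSL-Cas9, 41 of 642 Lkb1/inert tumours reached 1000 cells (6.39%), against 19 of 400 inert/inert tumours (4.75%), a within-mouse difference of 1.47 ± 1.90 points (permutation, adjusted p = 0.692). Tumours of at least 10000 cells numbered 11 in 7 mice, against 0 of 400 inert/inert tumours, which allows up to 0.750%. The share per mouse averaged 1.14 ± 0.43% over 17 mice, without replicate 8, which is among the 7. KT mice had 515 of 3040 (16.9%) and 251 of 1466 (17.1%) at 1000 cells, and 3 and 1 at 10000 cells, all in 1 mouse. Limits from a count of 0 cover counting error only.

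The large Lkb1 tumours did not come from a few mice or 1 guide. The 10 largest Lkb1/inert tumours of H11-Cas9 lay in 10 different mice and held 45.3% of all Lkb1/inert cells, against 17.2% for the 10 largest inert/inert tumours. The largest had 254848 cells, against 9625 cells for inert/inert, and 6 exceeded 100000 cells. Of these 10, 5 carried guide V1 and 5 carried V2. The largest Lkb1/inert tumour of a mouse had 249, 30435 and 254848 cells (lowest, median and highest), against 233, 1682 and 9625 cells for inert/inert.

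Number and size can be joined by counting only tumours above a size. Over all sizes, summed Lkb1/inert tumours per inert/inert tumour in H11-Cas9 were 0.445-fold those of KT (95% interval 0.403 to 0.494). At least 200 cells gave 0.395-fold (0.343 to 0.452) and at least 500 cells 0.478-fold (0.371 to 0.615). From 1000 cells the deficit was no longer seen, at 0.865-fold (0.633 to 1.15), with 110 and 62 tumours in H11-Cas9. The ratio was 1.46 (0.823 to 2.46) at 2000 cells and 4.10 (1.89 to 13.1) at 5000 cells, where 62 Lkb1/inert and 8 inert/inert tumours remained. Lkb1 tumours were thus fewer than in KT at small cutoffs and more at the largest.

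In H11-LSL-Cas9 the ratio was 0.774 (0.696 to 0.868) over all sizes, 0.659 (0.539 to 0.819) at 200 cells and 1.05 at 1000 cells. At 5000 cells 22 Lkb1/inert tumours stood beside 1 inert/inert tumour, too few for an interval. Summed cells per mouse, which join both effects, were 1307, 41509 and 298944 for Lkb1/inert in H11-Cas9 and 699.5, 7639 and 22293.5 for inert/inert. Against KT the log2 difference in summed cells over inert/inert was 0.95 ± 0.32 (45 against 9 mice, permutation, adjusted p = 0.269), and the permutation of the difference over its SE gave an adjusted p of 0.0194 (23.5% of genes were called higher by the first of these). For H11-LSL-Cas9 it was 0.27 ± 0.38 (permutation, adjusted p = 0.707).

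**Figure D3:**
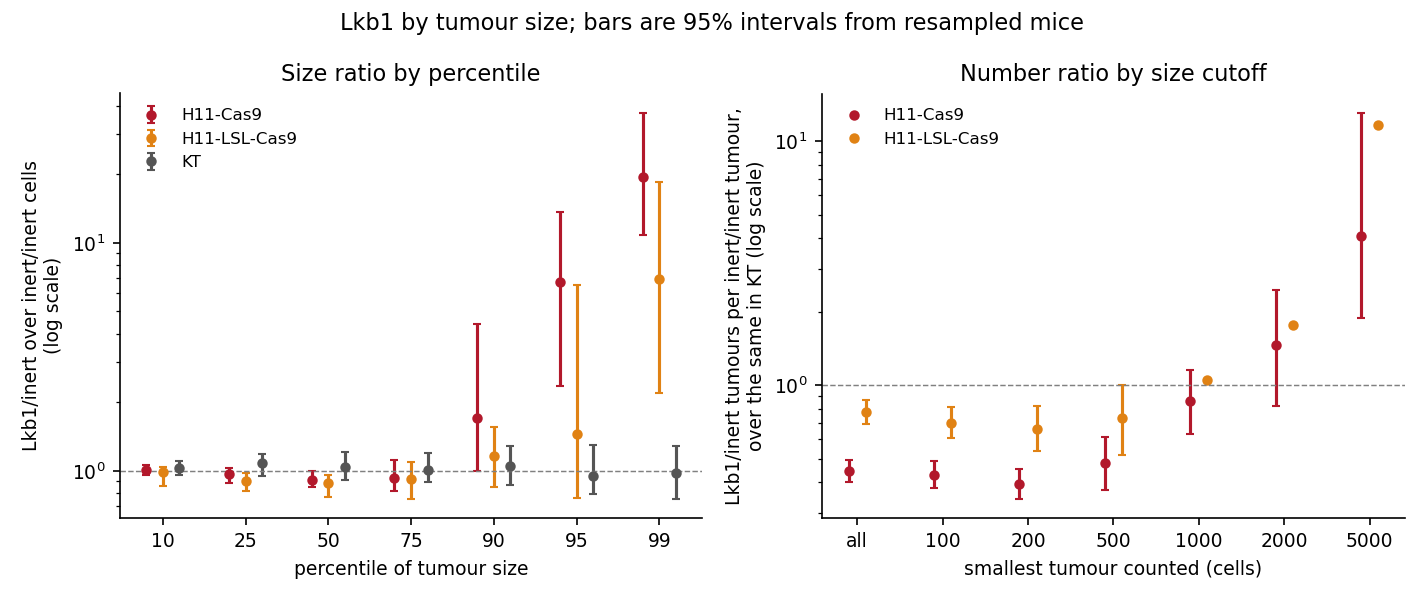
The left panel gives the ratio of Lkb1/inert to inert/inert cells (log scale) at 7 percentiles of tumour size in each group, and the right panel the ratio of Lkb1/inert tumours per inert/inert tumour to that of KT (log scale) by the smallest tumour counted. Bars are 95% intervals, missing where resampled mice could hold no inert/inert tumour. In H11-Cas9 the left ratio is 0.914 at the 50th and 19.5 at the 99th percentile, and the right one crosses 1 between 1000 and 2000 cells.

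The 2 Lkb1 guides differed in tumour number. In H11-Cas9, 378 tumours carried V1 and 643 carried V2 beside an inert guide, against 1641 and 1399 in KT. Relative to KT, V1 fell to 0.301-fold (log2 -1.73 ± 0.11) and V2 to 0.603-fold (-0.73 ± 0.09), each called by label permutation (adjusted p = 6.75e-05 and 0.00148). The difference of V1 minus V2 was -1.00145 ± 0.10 (45 against 9 mice, permutation, adjusted p = 1e-04). Their median sizes were 149 and 151 cells, and the 95th percentile was 21741 cells for V1 and 3677 for V2. Tested within mice, the guides' mean cells differed by 0.30 ± 0.62 log2 units (38 mice, permutation, adjusted p = 0.808), an SE wide enough to hold a large difference in either direction.

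In H11-LSL-Cas9, V1 lay at 0.716-fold (-0.48 ± 0.09, permutation, adjusted p = 0.00371) and V2 at 0.827-fold (-0.27 ± 0.13, permutation, adjusted p = 0.338), and their difference of -0.21 ± 0.12 did not pass (permutation, adjusted p = 0.509). Tumours with both Lkb1 guides numbered 76 in H11-Cas9, 75 in H11-LSL-Cas9 and 467 in KT. Their number fell to 0.227-fold in H11-Cas9 (-2.14 ± 0.18, permutation, adjusted p = 5e-05) and to 0.664-fold in H11-LSL-Cas9 (-0.59 ± 0.17, permutation, adjusted p = 0.0312), where 40% and 20% of 10 genes with a guide pair were called lower. Of the 76, 10 had at least 1000 cells and the largest had 252503 cells. The place of the guide in the construct made no detected difference in number, at 0.04 ± 0.11 in H11-Cas9 (permutation, adjusted p = 0.904).

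The Cas9 groups were compared directly. The mean cells per Lkb1 tumour over inert/inert were 1.497 ± 0.42 log2 units higher in H11-Cas9 than in H11-LSL-Cas9 (45 against 17 mice, permutation, adjusted p = 0.0375, with 11.8% of 17 genes called). Among H11-Cas9 mice near 300000 cells, the total that all H11-LSL-Cas9 mice share, that difference was 1.14 ± 0.49 (permutation, adjusted p = 0.161). The log2 number was lower by -0.80 ± 0.12 (permutation, adjusted p = 8.5e-05, with 23.5% of genes called), and by -0.70 ± 0.14 near 300000 cells (permutation, adjusted p = 0.00017).

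Lkb1 was then set against each of the other genes in the same H11-Cas9 mice, with each gene beside an inert guide. Among the 15 genes reported by name, the mean cells of Lkb1 tumours were higher than those of 13 after adjustment, where 50.7% of all gene pairs differed. The difference ranged up to 2.59 ± 0.65 log2 units for Pcna, the sliding clamp of DNA replication (13 mice, permutation, adjusted p = 0.00612). Against p53, the transcription factor that answers DNA damage, it was 1.31 ± 0.31 (33 of 45 mice, permutation, adjusted p = 0.000394). No difference was called from the remaining genes, Nf1, a protein that switches RAS off (0.58 ± 0.32, permutation, adjusted p = 0.122), and Meaf6, a subunit of histone acetyltransferase complexes (1.16 ± 0.63, 13 mice, permutation, adjusted p = 0.122). By mean log2 cells Lkb1 differed from 0 of the 15 after adjustment (23.5% of all gene pairs did), and from Keap1, Kmt2a, Kmt2b, Nf1 and Pcna at an unadjusted p under 0.05. By the share of at least 1000 cells it was higher than Kmt2a, Pcna and Rb1, 3 of 15 (18.4% of all gene pairs differed).

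The mean share of tumours of at least 10000 cells was lower for each other reported gene than for Lkb1 in H11-Cas9 but not in H11-LSL-Cas9, and these gaps were not tested. In H11-Cas9 Lkb1 stood at 4.68 ± 0.77%, Nf1 at 2.09 ± 0.41 (in 32 of 45 mice) and Setd2, the methyltransferase of histone H3 in transcribed genes, at 1.69 ± 0.37. The Wnt pathway scaffold Apc stood at 1.60 ± 0.42, the cell cycle inhibitor Rb1 at 1.40 ± 0.35 and p53 at 0.83 ± 0.18. Keap1, the adaptor that marks NRF2 for degradation, stood at 0.46 ± 0.19. In H11-LSL-Cas9 Apc stood at 2.25 ± 0.66% and Nf1 at 2.16 ± 0.53%, both above the 1.14 ± 0.43% of Lkb1.

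In number, Lkb1 tumours of H11-Cas9 were lower than those of 11 of the 15 genes, with KT as the reference (64% of all gene pairs differed). They were 0.331-fold those of Nf1 (log2 -1.59 ± 0.08) and 0.376-fold those of p53 (-1.41 ± 0.07, each label permutation, adjusted p = 2.96e-05), and 0.700-fold those of Apc (-0.52 ± 0.09, permutation, adjusted p = 0.0081). They were higher than those of Pcna (2.98 ± 0.15, permutation, adjusted p = 2.96e-05). No difference was called from Keap1 (-0.21 ± 0.07, permutation, adjusted p = 0.204), from the histone methyltransferase Kmt2b (-0.12 ± 0.13, adjusted p = 0.714) or from Meaf6 (-0.60 ± 0.18, adjusted p = 0.123). The permutation of the difference over its SE did call Keap1 (adjusted p = 0.0140) and Meaf6 (adjusted p = 0.00833), but not Kmt2b (adjusted p = 0.407). Keap1 and Kmt2b had the smallest differences from Lkb1 in number among the 15 genes. At the 95th percentile of cells, pooled over both spike-in totals, the log2 ratio to inert/inert was 2.75 for Lkb1, 0.54 for Keap1 and 0.50 for Kmt2b.

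Likeness to Lkb1 was measured as the distance over 6 log2 values: the ratios to inert/inert at the 50th, 90th, 95th and 99th percentiles in H11-Cas9, and the number in both Cas9 groups. Of the 15 genes reported, the nearest were Meaf6 (distance 2.43), Apc (2.58) and Nf1 (2.75), and Pcna was the farthest (7.64). In H11-Cas9, the log2 number against KT was -1.19 for Lkb1, -0.58 for Meaf6, -0.67 for Apc and 0.41 for Nf1. The log2 ratio at the 99th percentile was 4.29 for Lkb1, 2.74 for Meaf6, 2.52 for Apc and 2.90 for Nf1. Meaf6 and Apc shared the sign of both values with Lkb1, and Nf1 that of the tail alone. Most other reported genes, among them Setd2, Rb1 and Keap1, shared both signs too, so the signs do not set Meaf6 and Apc apart. Meaf6 rests on 157 tumours, and its number was not called (label permutation, adjusted p = 0.0955). The permutation of the difference over its SE did call it (adjusted p = 0.00722).

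**Figure D4:**
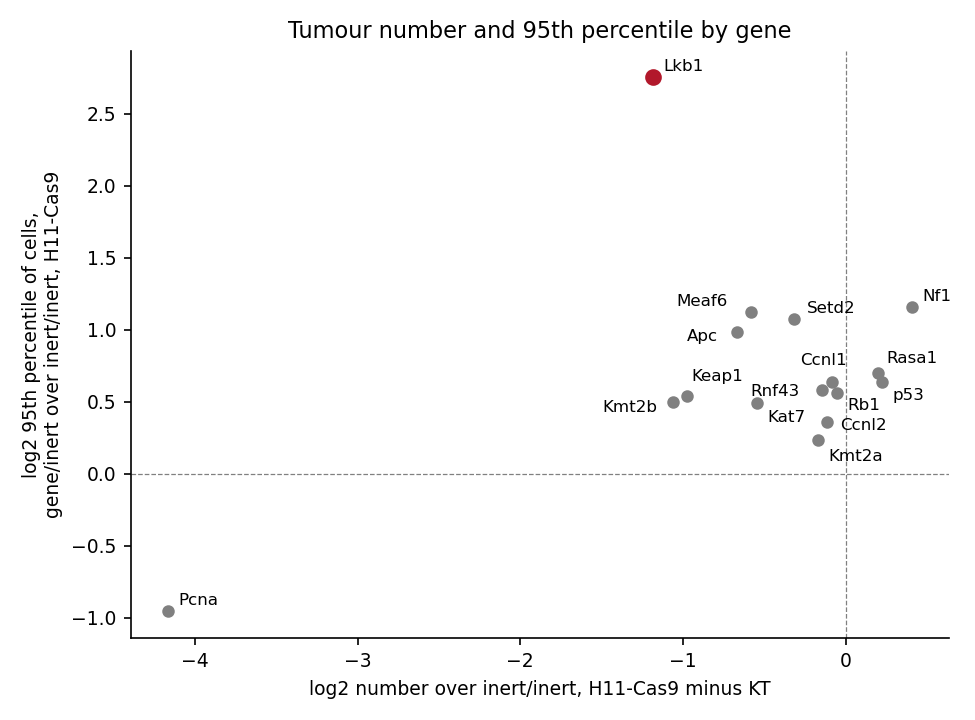
Each point is a gene beside an inert guide, with its log2 number over inert/inert in H11-Cas9 minus KT on the x axis and its log2 ratio of the 95th percentile of cells to that of inert/inert on the y axis. Both spike-in totals are pooled. Lkb1 (red) sits at -1.19 and 2.75, above and to the left of most of the 15 other genes, of which Nf1 (0.41 and 1.16) and Meaf6 (-0.58 and 1.12) are next in height.

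The deficit in number was also seen beside most second genes. Every comparison of this kind used the same KT mice and the same Lkb1/inert or inert/inert tumours, so the counts over partners are not independent. Pairs of Lkb1 with another gene were called lower in number than inert/inert for 15 of 16 partners in H11-Cas9 (47.1% of all gene pairs) and for 8 of 16 in H11-LSL-Cas9 (19.1%). The median over partners was -1.25 log2 units in H11-Cas9, against -0.56 over all pairs.

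Adding Lkb1 to a partner gene, that is Lkb1/partner over partner/inert relative to KT, lowered the number for 14 of 16 partners in H11-Cas9 (24.3% of all 272 steps were called lower). The median was -1.10 log2 units, against -0.14 over all steps. A mouse entered with at least 5 partner/inert tumours, the number that the pair is set against, and for rare partners this kept few mice. Over all 45 mice, a setting chosen after seeing the data, 12 of 16 partners were called (22.1% of all steps), with a median of -1.002 against -0.07 over all steps. For 8 of the 15 reported partners every mouse entered both, so their values are the same. Among these, the fall was -1.38 ± 0.08 beside Nf1 and -1.20 ± 0.08 beside Rasa1, another RAS-inactivating protein. In the p53 and cell cycle list it was -1.30 ± 0.07 beside p53 and -1.22 ± 0.11 beside Rb1. All 4 passed the label permutation at an adjusted p of 8.5e-05. In plain counts, 794 tumours with Lkb1 and Nf1 stood beside 3234 Nf1/inert tumours in H11-Cas9 (0.246 per tumour), and 2037 beside 3152 in KT (0.646).

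Of the Wnt list both partners passed, Rnf43, a ligase that removes Wnt receptors, at -1.12 ± 0.08 and Apc at -0.90 ± 0.12 (permutation, adjusted p = 8.5e-05 and 0.00208). Keap1 passed at -0.86 ± 0.09 (adjusted p = 0.000209) and Setd2 at -1.09 ± 0.10 (adjusted p = 8.5e-05). Over all 45 mice both cyclins L passed as well, Ccnl2 at -0.93 ± 0.15 and Ccnl1 at -0.86 ± 0.16 (permutation, adjusted p = 0.00845 and 0.0231), and so did the histone methyltransferase Kmt2a (-1.08 ± 0.20, adjusted p = 0.0276).

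The values of the other 4 partners depended on which mice were kept. Meaf6 passed at -1.21 ± 0.33 in the 13 mice with enough Meaf6/inert tumours (permutation, adjusted p = 0.0239), but lay at -0.01 ± 0.24 over all 45 mice (adjusted p = 0.988), of which 19 held no tumour of the pair. The acetyltransferase Kat7 passed at -1.10 ± 0.26 in 31 mice (adjusted p = 0.00993), and lay at -0.93 ± 0.25 over all mice (adjusted p = 0.0530). Kmt2b was called in neither, at -0.87 ± 0.23 in 29 mice and at -0.53 ± 0.21 over all (adjusted p = 0.0677 and 0.360). Pcna was called in neither, at -0.88 ± 0.32 in 13 mice and at -0.33 ± 0.17 over all (adjusted p = 0.0868 and 0.567). From tumours summed over all mice, which needs no minimum and no pseudocount, the log2 step was -0.38 for Meaf6, -0.44 for Pcna, -0.54 for Kmt2b and -1.04 for Kat7. The summed values of the 15 reported partners ran from -1.40 for Nf1 to the -0.38 of Meaf6.

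An interaction in number, the pair less the sum of both single effects, was called for 0 of 16 partners in the label permutation (0 at an unadjusted p under 0.05, and 0 by the permutation of the difference over its SE), where 0.735% of all pairs were called in each direction. Meaf6 and Pcna entered that count with 13 mice each. Over all 45 mice 0 of 16 were called by the label permutation (1 at an unadjusted p under 0.05, with 6.62% of all pairs called higher and 0.735% lower), and 2 by the permutation of the difference over its SE. These 2 were Meaf6, at 1.17 ± 0.24 (label permutation, adjusted p = 0.113), and Pcna, at 0.85 ± 0.20 (adjusted p = 0.515), and Kmt2b came next at 0.66 ± 0.21 (adjusted p = 0.780). From summed tumours these interactions were 0.79, 0.73 and 0.63, and the pairs held 40, 68 and 93 tumours in H11-Cas9.

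In H11-LSL-Cas9 the step that adds Lkb1 was called lower for 6 of 16 partners (9.93% of steps), among them Nf1 (-0.68 ± 0.08, permutation, adjusted p = 0.000247) and p53 (-0.54 ± 0.10, adjusted p = 0.0063). Kat7 was called in 13 mice (-0.82 ± 0.26, adjusted p = 0.0426) but lay at -0.55 ± 0.32 over 17 mice (adjusted p = 0.403), where 5 of 16 partners were called (8.46% of steps). Keap1 lay at -0.16 ± 0.10 (adjusted p = 0.551). Taken from the other side, adding a partner to Lkb1 lowered the number in H11-Cas9 for Pcna (-3.31 ± 0.18, adjusted p = 8.5e-05) and Keap1 (-0.65 ± 0.10, adjusted p = 0.00687). These were 2 of 16 partners, a lower share than the 24.3% of all 272 steps called lower in H11-Cas9.

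The long tail of Lkb1 was also present beside other genes. In H11-Cas9, 306 of 5921 tumours with Lkb1 and 1 of the 15 reported partners had at least 10000 cells (5.17%), against 236 of 20802 partner/inert tumours (1.13%). The share was higher with Lkb1 for 14 of the 15. The same count was not made for adding any other gene, so it does not show a trait particular to Lkb1. Some of the 14 rest on few tumours, such as Pcna (1 of 68 against 1 of 190) and Meaf6 (2 of 40 against 3 of 157). It was 30 of 387 tumours for Lkb1 with Apc (7.75%) against 17 of 1041 for Apc/inert (1.63%), and 43 of 638 (6.74%) against 33 of 2141 (1.54%) for Setd2. For Rasa1 it was 37 of 747 (4.95%) against 14 of 2604 (0.538%). The exception was Kat7, with 0 of 80 against 2 of 278 tumours. In H11-LSL-Cas9 these shares came to 130 of 3709 (3.50%) against 71 of 8035 (0.884%), and in KT to 31 of 20474 (0.151%) against 74 of 33889 (0.218%). The share was higher with Lkb1 for 12 of the 15 partners in H11-LSL-Cas9 and for 5 of the 15 in KT. All these shares are sums over mice and carry no test.

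**Figure D5:**
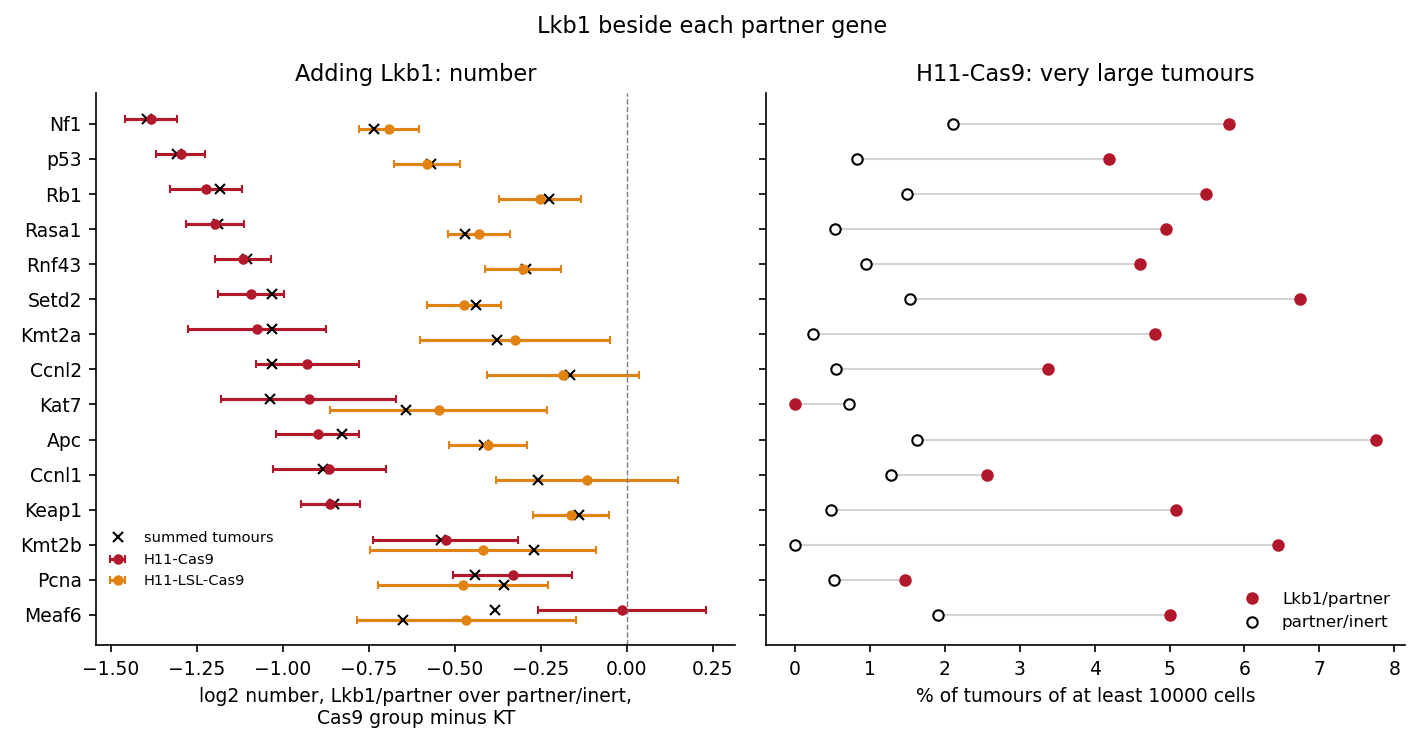
The left panel gives the log2 number of Lkb1/partner over partner/inert tumours, Cas9 group minus KT, for 15 partner genes in H11-Cas9 (red) and H11-LSL-Cas9 (orange), as mean ± SE over mice with at least 5 inert/inert tumours, with crosses for tumours summed over all mice. All lie below 0, Meaf6 in H11-Cas9 at -0.01 over mice and -0.38 summed. The right panel gives the percent of tumours of at least 10000 cells in H11-Cas9 for Lkb1/partner (filled) and partner/inert (open), with the filled point to the right for every partner but Kat7.

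Within mice, adding Lkb1 raised the mean cells per tumour for 4 of 15 testable partners in H11-Cas9 (13.2% of all 212 steps were called higher), and for 1 partner among the 20 mice near 300000 cells. The 4 were Apc (log2 2.07 ± 0.73, 34 mice, permutation, adjusted p = 0.036), Rasa1 (1.89 ± 0.37, 44 mice, adjusted p = 0.000265), Keap1 (1.57 ± 0.33, 44 mice, adjusted p = 0.000606) and Rnf43 (1.39 ± 0.35, 45 mice, adjusted p = 0.00366). Nf1 (1.002 ± 0.45), p53 (0.87 ± 0.40) and Setd2 (1.06 ± 0.47) lay above 0 with adjusted p from 0.109 to 0.116. By mean log2 cells the step was called for 0 of 15 (2 of them, Keap1 at 0.32 ± 0.12 and Apc at 0.51 ± 0.20, at an unadjusted p under 0.05), where 8.49% of steps were called higher. In H11-LSL-Cas9 the step in mean cells passed for Rnf43 (5.99% of steps were called higher, 1.27 ± 0.39, 13 of 18 mice, permutation, adjusted p = 0.0425).

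Against inert/inert, pairs of Lkb1 with another gene had larger mean log2 cells for 8 of 15 partners in H11-Cas9 (35.8% of 106 pairs were called higher), and for 1 among the 20 mice near 300000 cells. By list these were both RAS and MAPK genes, both Wnt genes, Keap1, 1 of 2 p53 and cell cycle genes (p53 at 0.29 ± 0.10, while Rb1 lay at 0.38 ± 0.17 with an adjusted p of 0.0709) and 1 of 4 chromatin genes, Setd2. In mean cells per tumour 9 of 15 were called (43.4% of 106), among them Lkb1 with Apc at 2.89 ± 0.67, with Nf1 at 2.58 ± 0.43 and with Rasa1 at 2.5002 ± 0.36 log2 units. For H11-LSL-Cas9 mean cells were called higher for 7 of 15 (32.7% of 110), with Setd2 at 2.39 ± 0.60 and Rb1 at 2.14 ± 0.52, and lower for Pcna (-0.60 ± 0.18, 15 mice, permutation, adjusted p = 0.0238, with 3.64% called lower). A size interaction was called for 1 of 15 partners in H11-Cas9, p53, at -0.27 ± 0.10 (above 0 in 17 of 45 mice, permutation, adjusted p = 0.0493, with 21.7% of 106 interactions called lower), and for 0 of them at either spike-in total alone.

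All partners were then counted together, with same-guide and NE constructs left out of the total as well. Lkb1 guides were in 7.44% of these 108080 tumours of H11-Cas9 mice but in 422 of the 2283 tumours of at least 10000 cells (18.5%). The largest tumour of the mouse carried one in 11 of 45 mice. In H11-LSL-Cas9 mice the shares were 11.2% and 21.2% (168 of 792), and 5 of 20 mice had such a largest tumour. In KT mice they were 26535 of 189387 tumours and 11.7% (42 of 358), and 1 of 9 mice did. Most of these tumours also carried a guide against a partner gene. These counts are sums over mice, carry no test and were not made for any other gene, so they show no trait particular to Lkb1.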

How the data were processed

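Reads per tumour, as deposited by the authors, are counts with no normalization, per the file headers. Cells per tumour are a signal that the authors derived from spike-in barcodes, per the labels; in each mouse they equalled reads times 1 factor, checked on the values. Genotype groups came from the labels. Read filters, barcode merging and viral doses are not stated in the labels or files used.

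Size was compared within mice with at least 5 tumours of each genotype, by 2-sided sign flips (exact under 10 mice, otherwise 100000 resamples, so that the smallest p is 1e-05). The measures were mean log2 cells, log2 of the arithmetic mean, the median, and the share of tumours of at least 1000 cells. Number was log2 of tumours plus 0.5 over inert/inert plus 0.5, for mice with at least 5 inert/inert tumours (17 of 20 H11-LSL-Cas9 mice), Cas9 minus KT, by label permutation. Steps set a pair against 1 of its single genes, for mice with at least 5 tumours of that gene, and interactions against both; both were repeated over all mice with at least 5 inert/inert tumours. With 9 KT mice an exact sign flip cannot go below 0.00391. P-values were adjusted by the Benjamini-Hochberg method over all genes or pairs of a kind, with a call under 0.05, and measure the spread between mice. Percentile and cutoff intervals (95%) resampled mice 1000 times.

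The named genes were Lkb1, its guides, its partners and the 3 reported genes nearest to it. The gene, the partner lists and the tests were chosen with earlier results of these data known. Results for 1 gene are not reported here, though it stays in counts over all genes and over 16 or 15 partners. Alternatives covered size and tumour minimums, guides, inert sets, spike-in totals, pseudocount and left-out mice. Scripts were tested on simulated data and ran in Python 3.11.15 (numpy 2.4.6, scipy 1.17.1, pandas 2.3.3; figures in matplotlib 3.10.9).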

Additional observations from a re-analysis of the deposited data

Results flagged for a closer look

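Both Cas9 groups carried the same guides, and the size and the number of Lkb1 tumours differed between them in a direct test. The mean cells of Lkb1/inert over inert/inert tumours were higher by 1.497 log2 units in H11-Cas9 than in H11-LSL-Cas9 (label permutation, adjusted p = 0.0375), but among mice near 300000 spike-in cells by 1.14 ± 0.49 (adjusted p = 0.161), which did not pass. The log2 number of Lkb1/inert over inert/inert tumours was lower by -0.80 in H11-Cas9 than in H11-LSL-Cas9 (permutation, adjusted p = 8.5e-05). Among mice near 300000 spike-in cells the difference in number was -0.70 (permutation, adjusted p = 0.00017). A spike-in total near 100000 cells was found in 25 of 45 H11-Cas9 and 0 of 20 H11-LSL-Cas9 mice. Cells per read, mouse names and Cas9 allele also differ between these groups and cannot be told apart, and the part of each was not tested.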

How the results depend on the processing

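Depth limits the smallest tumours, which rest on few reads, and the tail of inert/inert tumours, which holds few entries, and intervals cover the mice or the counting only. Sizes were compared within mice, but for the comparisons between groups no paired analysis was possible because mouse numbers only name animals and no mouse is in 2 groups. The number of Lkb1/inert tumours in H11-Cas9 kept its call in 12 of 13 settings and without any single KT mouse (-1.21 to -1.17), and was -0.33 with tumours of at least 1000 cells alone. In H11-LSL-Cas9 it lost its call at 1000 cells (-0.13), with same-guide constructs kept (-0.28), with safe guides only (-0.46), near 300000 cells (-0.37), with guide V2 alone (-0.27), and in 6 of 9 fits without a KT mouse (-0.41 to -0.37). Mean cells in H11-Cas9 kept their call in all 9 settings, chosen after seeing the data, and without any mouse (2.06 to 2.23); in H11-LSL-Cas9 they gained one with NE counted as inert (1.56) and spanned 0.52 to 0.81 without a mouse. Mean log2 cells in H11-Cas9 lost the call with safe guides only (0.21), at 500 cells (0.60), near 300000 cells (0.0381) and with guide V1 (0.30) or V2 (0.17) alone, turned to -0.0481 as a median, and spanned 0.23 to 0.29 without a mouse. In H11-LSL-Cas9 they turned with same-guide constructs (0.0911), NE as inert (0.13), at 200 cells (0.23) and as an arithmetic mean (0.66), and spanned -0.09 to -0.01. The share of at least 1000 cells in H11-Cas9 lost its call when 500 cells counted as large (1.78) and near 300000 cells (1.95), and spanned 4.69 to 5.57; in H11-LSL-Cas9 it turned at 500 cells (-1.71) and spanned 0.52 to 2.66. Near 300000 cells 1 pair was called larger in place of 8, and 1 step that adds Lkb1 in mean cells in place of 4. Steps in number that add Lkb1 were called for 12 partners over all mice in place of 14, a setting chosen after seeing the data. Size interactions called numbered 3 at 200 cells, 2 at 10 tumours per mouse and 0 at either spike-in total. Steps in mean log2 cells that add Lkb1 numbered 3 at 200 cells and 1 at 10 tumours, and steps that add a partner 2 at 10 tumours. The causes were not tested. NT and EGFP guides alone, and at least 500 cells in H11-LSL-Cas9, left too few tumours and were not run.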
